A study of Mus musculus with 12 samples.

Results

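Mucins, trefoil factors and 2 further genes of the classical duct-type programme were followed across 12 pancreatic ductal adenocarcinomas that arose in genetically engineered KPC mice. The 10 genes were Muc5ac, Muc5b, Muc6, Muc1, Muc4, Tff1, Tff2, Tff3, Agr2 and Tspan8, taken by name from the table of expected counts, which lists 52636 genes. All 10 were measured, and all 10 passed the filter on low counts, which left 24065 genes. The study crossed genotype with drug in KPC mice on a mixed C57BL/6 and 129 background: KPC/CDH11+/- mice given gemcitabine, KPC/CDH11+/+ mice given gemcitabine, untreated KPC/CDH11+/- mice and untreated KPC/CDH11+/+ mice, with 3 mice in each of the 4 groups. Cdh11 encodes cadherin 11, through which mesenchymal cells such as fibroblasts adhere, and gemcitabine is a deoxycytidine analogue used against pancreatic cancer. Each library is the total RNA of 1 snap-frozen tumour. All mice carried the KPC alleles, so no group stands for normal pancreas. The sources used here do not state ages, doses, the alleles behind the name KPC or the tumour area sampled.

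Gel-forming mucins are long, heavily glycosylated proteins that epithelial cells secrete and that cross-link into mucus. Membrane mucins stay anchored on the cell surface and signal from there. Trefoil factors are small secreted peptides that travel with mucus and help to restore a damaged epithelium. The healthy pancreatic duct makes little gastric-type mucus, while ducts that turn neoplastic commonly switch on mucins and trefoil factors of the gastric epithelium, and well-differentiated tumours of the classical subtype keep them.

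Libraries held between 39388328 and 56559413 expected counts. Cdh11 was at 108.5, 142 and 72.0 CPM (counts scaled to library size) in gemcitabine-treated tumours labelled +/-, 142, 62.2 and 123 CPM in gemcitabine-treated +/+ tumours, 148, 115 and 73.7 CPM in untreated +/- tumours and 225, 283 and 165 CPM in untreated +/+ tumours. The untreated genotypes did not overlap in Cdh11 and the treated genotypes did, so the treated groups are called by their labels throughout. The X inactivation transcript Xist was below 2 CPM in all gemcitabine-treated +/- tumours and at or above 1322 CPM in all gemcitabine-treated +/+ tumours, and genotype cannot be told apart from sex among treated mice. Among untreated mice 1 of 3 +/- tumours (mouse 1) and 2 of 3 +/+ tumours (mice 1 and 3) were Xist-high. Sex was thus also unbalanced between the untreated genotypes, and between treated and untreated mice of either genotype. Epithelial genes were abundant in every tumour, with Krt19, a keratin of duct cells, between 182 and 1060 CPM. Bulk RNA cannot tell a smaller share of epithelial cells apart from less RNA per cell.

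Promoters of Muc1 and Tspan8 are shown because these 2 genes had an unadjusted p under 0.05 in the same 3 comparisons below. RefSeq (GRCm38.p6) gave a window of 250 bases before to 50 bases after the start for 5 of the 10 genes: Muc1, Muc4, Muc6, Agr2 and Tspan8. The Muc1 window is chr3:89228806-89229105 on the plus strand, and the Tspan8 window is chr10:115817034-115817333 on the plus strand. Capitals mark matches to the motifs searched.
Muc1: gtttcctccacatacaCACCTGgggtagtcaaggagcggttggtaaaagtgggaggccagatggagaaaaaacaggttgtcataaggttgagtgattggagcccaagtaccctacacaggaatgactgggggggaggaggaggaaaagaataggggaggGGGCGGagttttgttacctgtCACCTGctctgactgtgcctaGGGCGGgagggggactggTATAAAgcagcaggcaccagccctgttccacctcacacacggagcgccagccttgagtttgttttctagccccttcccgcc
Tspan8: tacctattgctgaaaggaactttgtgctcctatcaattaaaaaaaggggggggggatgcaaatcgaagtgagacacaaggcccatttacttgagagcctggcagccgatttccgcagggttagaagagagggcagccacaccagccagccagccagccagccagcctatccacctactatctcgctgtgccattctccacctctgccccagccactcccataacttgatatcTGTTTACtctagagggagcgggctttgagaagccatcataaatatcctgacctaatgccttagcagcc
The motifs were AGATAA as the letters of the GATA family, TGTTTAC for FOXA, TGACTCA for AP-1, TATAAA as the letters of the TATA box, GGGCGG for KLF/SP and CAGGTG for the E-box, each searched on both strands, and no match overlapped another. In Muc1 they marked E-boxes beginning at -234 and -70, KLF/SP at -91 and -49 and TATA at -31, counted from the RefSeq start. The Tspan8 window held 1 FOXA match at -18. Muc4 had TATA at -36 and GATA at 8 and 32, Muc6 had GATA at -194, and these letters were not in the Agr2 window. Of all 32851 promoter windows of this length, the E-box was in 20.2%, KLF/SP in 35.7%, TATA in 13.6%, GATA in 11.2%, AP-1 in 5.2% and FOXA in 3.65%.

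Per kb of exon, so that genes of different length can be set side by side, the small secreted peptides and the surface proteins were the most abundant. Tff1 had a median of 95.2 CPM per kb over the 12 tumours, Tff2 82.4, Muc1 77.8 and Tspan8 76.1. These 4 levels lay within each other's ranges, from 13.6 to 380 for Tff1 and from 41.2 to 146 for Tspan8. A second tier was formed by Muc6 at 10.6, Agr2 at 9.24, Muc4 at 4.91 and Muc5ac at 4.38 CPM per kb. Tff3 at 0.947 and Muc5b at 0.442 CPM per kb were lowest. Tff1 was the most abundant of the 10 genes per kb in 5 tumours, Tspan8 in 3, Tff2 in 2 and Muc1 in 2. The genes differed widely in how far tumours lay apart. In CPM, the highest tumour was 3.53 times the lowest for Tspan8 and 9.17 times for Muc1, but 44.2 times for Tff2, 53.8 times for Muc6, 405 times for Muc5b and 405 times for Muc5ac. Untreated +/- mouse 3 held the highest level of 5 of the 10 genes (Muc1, Muc5ac, Muc5b, Tff1 and Tff2) and the lowest of 2 others (Muc6 and Agr2).

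**Figure D1:**
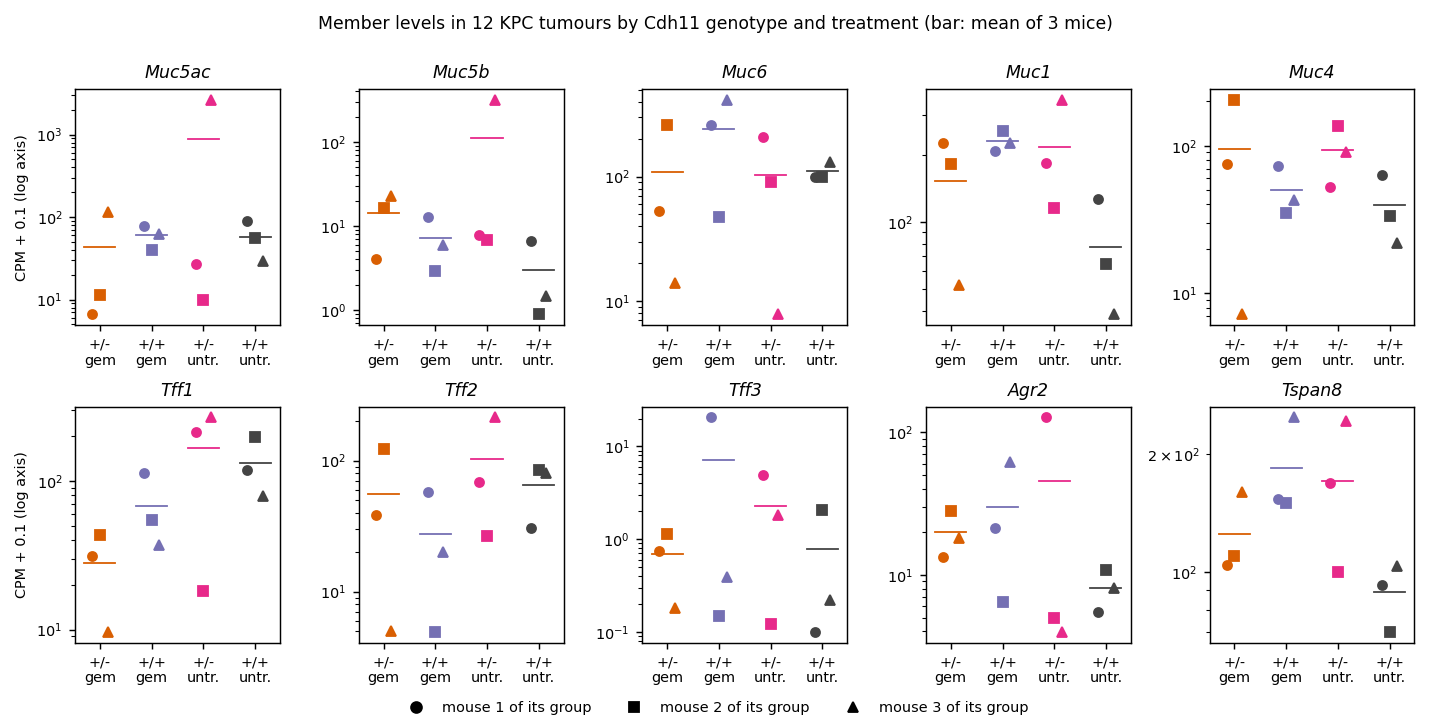
Level of each of the 10 genes in 12 tumours (y axis, CPM + 0.1 on a log axis; each panel has its own range) by group (x axis, with gem for gemcitabine and untr. for untreated), with symbols for mouse 1, 2 and 3 of a group and a bar at the mean of 3 mice. Untreated +/- mouse 3 stands at 2637 CPM for Muc5ac and 318 CPM for Muc5b, while Tspan8 stays between 70.1 and 248 CPM in all tumours.

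The gel-forming mucins lie together on chromosome 7 (GRCm38): Muc6 at chr7:141633456-141655319 on the minus strand, Muc5ac at chr7:141788972-141819231 and Muc5b at chr7:141839070-141873084, both on the plus strand. Muc5ac, the mucin of the gastric surface and a marker of pancreatic neoplasia, was at 6.52, 11.3 and 114 CPM in gemcitabine-treated +/- tumours, 78.2, 39.3 and 61.9 CPM in gemcitabine-treated +/+ tumours, 26.7, 9.74 and 2637 CPM in untreated +/- tumours and 88.8, 54.9 and 29.7 CPM in untreated +/+ tumours. The +/+ tumours kept to a narrow band under both treatments, and the +/- tumours spread below and above it. Untreated +/- mouse 3 was 23.2 times the next tumour, which was gemcitabine-treated +/- mouse 3. Muc5b, the main gel former of the airways, was at 3.98, 16.1 and 22.4 CPM in gemcitabine-treated +/- tumours, 12.8, 2.81 and 5.83 CPM in gemcitabine-treated +/+ tumours, 7.60, 6.65 and 318 CPM in untreated +/- tumours and 6.57, 0.784 and 1.36 CPM in untreated +/+ tumours. The same tumour was again highest, at 14.2 times the next, and the lowest untreated +/- tumour lay barely above the highest untreated +/+ tumour.

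Muc6, the mucin of gastric glands and of pancreatic ductules, was at 53.2, 261 and 13.9 CPM in gemcitabine-treated +/- tumours, 261, 47.2 and 414 CPM in gemcitabine-treated +/+ tumours, 209, 91.0 and 7.69 CPM in untreated +/- tumours and 99.2, 99.1 and 131 CPM in untreated +/+ tumours. All pairs of groups overlapped, and mouse 3 of either +/- group had the least. Per kb, Muc6 was the leading gel-forming mucin in 10 of 12 tumours, with Muc5ac between 0.0378 and 0.779 times its level. In the other 2, both +/-, Muc5ac led: by 7.12 times in gemcitabine-treated mouse 3 and by 299 times in untreated mouse 3. Over all 5 mucins, Muc1 led per kb in 11 tumours and Muc5ac in 1, untreated +/- mouse 3, at 245 CPM per kb.

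**Figure D2:**
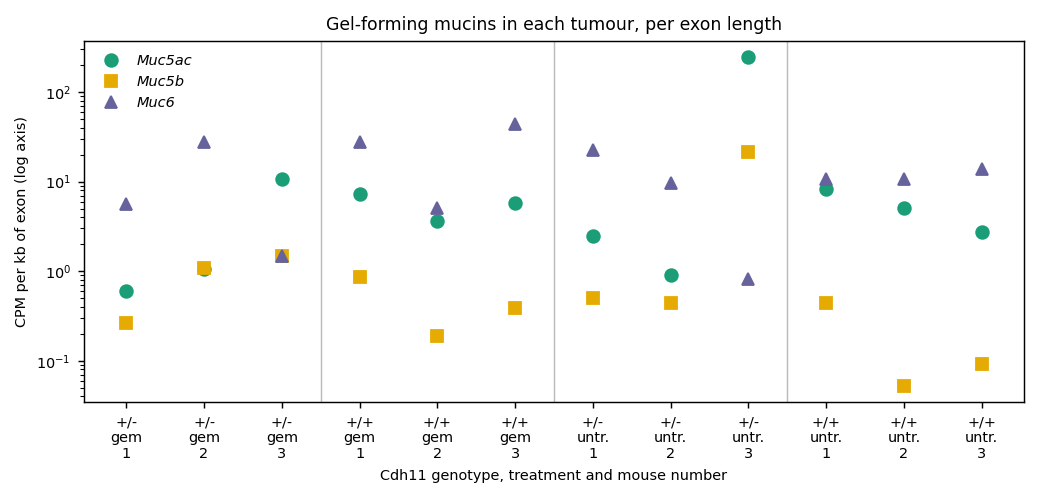
Muc5ac, Muc5b and Muc6 in each of 12 tumours (x axis: genotype, treatment and mouse) in CPM per kb of exon (y axis, log axis). Muc6 is the highest of the 3 in 10 tumours, and Muc5ac is the highest in mouse 3 of both +/- groups.

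Muc1 (chr3:89229057-89233381, plus strand), the membrane mucin of most glandular epithelia, was at 224.5, 182 and 52.0 CPM in gemcitabine-treated +/- tumours, 208, 256 and 225 CPM in gemcitabine-treated +/+ tumours, 183, 116 and 352 CPM in untreated +/- tumours and 127, 64.9 and 38.4 CPM in untreated +/+ tumours. Untreated +/+ tumours lay low: all 3 were below every gemcitabine-treated +/+ tumour, and 1 of them (mouse 1) was above the lowest untreated +/- tumour. Muc4 (chr16:32735886-32782391, plus strand), a membrane mucin that binds the receptor ErbB2, was at 74.9, 205 and 7.10 CPM in gemcitabine-treated +/- tumours, 73.2, 35.1 and 42.9 CPM in gemcitabine-treated +/+ tumours, 52.4, 137 and 90.3 CPM in untreated +/- tumours and 63.2, 33.2 and 21.8 CPM in untreated +/+ tumours. Its highest and its lowest tumour were both gemcitabine-treated +/-, and all 4 groups overlapped. Muc4 shares 627 bases of exon with Muc20 on the opposite strand. Muc20 lay between 1.07 and 30.8 CPM, was highest in the tumour highest for Muc4, and cannot be fully separated from it, since the sources used here do not state how the counting treated strand.

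The 3 trefoil factor genes form a cluster on the minus strand of chromosome 17: Tff3 at chr17:31125306-31129646, Tff2 at chr17:31141049-31144282 and Tff1 at chr17:31161395-31165277. Tff1, the trefoil peptide of gastric surface cells, was at 31.0, 43.2 and 9.57 CPM in gemcitabine-treated +/- tumours, 112, 54.5 and 37.1 CPM in gemcitabine-treated +/+ tumours, 212, 18.0 and 267 CPM in untreated +/- tumours and 118, 196 and 79.4 CPM in untreated +/+ tumours. Gemcitabine-treated +/- tumours were all at or below 43.2 CPM, and of the 6 untreated tumours 1 (+/- mouse 2) was that low. Tff1 shares 221 bases of exon with Gm15318 on the opposite strand, which reached at most 7.25 CPM. Tff2, the trefoil peptide of gastric gland and neck cells, was at 38.4, 122 and 4.88 CPM in gemcitabine-treated +/- tumours, 57.9, 4.83 and 20.02 CPM in gemcitabine-treated +/+ tumours, 68.3, 26.6 and 214 CPM in untreated +/- tumours and 30.3, 85.1 and 80.8 CPM in untreated +/+ tumours. Its groups all overlapped, with 2 treated tumours of different genotype below 5 CPM.

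Tff3, the trefoil peptide of intestinal goblet cells, was low, with a median of 0.467 CPM over the 12 tumours, and near the limit of detection in several. It was at 0.646, 1.02 and 0.0803 CPM in gemcitabine-treated +/- tumours, 20.5, 0.0465 and 0.288 CPM in gemcitabine-treated +/+ tumours, 4.81, 0.0216 and 1.73 CPM in untreated +/- tumours and 0, 1.94 and 0.118 CPM in untreated +/+ tumours. The 0 of untreated +/+ mouse 1 allows up to 0.0662 CPM, the value of 3 counts there. Gemcitabine-treated +/+ mouse 1, with 939 Tff3 counts, also held genes of the intestinal lining. In that tumour the goblet mucin Muc2 was at 159 CPM (at most 9.96 CPM in the other 11), the enterocyte genes Apoa4, Sis and Fabp2 were at 280.0, 44.8 and 9.55 CPM (at most 0.312, 0.0803 and 0.258 CPM in the others), and none of the 12 listed enterocyte or 10 listed goblet and Paneth cell genes was at 0. Sis was at 0 in 8 tumours and Apoa4 in 6. The goblet and Paneth list summed to 899 CPM there and to between 26.5 and 335 CPM elsewhere, while the enterocyte list, which includes Apob and Vil1, summed to 2292 CPM there and to between 121 and 3945 CPM elsewhere. A list of 9 gastric corpus genes held genes of chief and parietal cells and the hormone gene Ghrl. It summed to between 4.13 and 12.1 CPM in 11 tumours and to 45.1 CPM in untreated +/- mouse 1, where Pgc was at 39.4 CPM. In gemcitabine-treated +/- tumours Ghrl averaged 5.21 CPM, where the sum averaged 8.09 CPM. Of that list Atp4b reached at most 0.415 CPM and Gif at most 0.140 CPM. What part the intestinal genes have in the Tff3 level of that tumour was not tested.

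**Figure D3:**
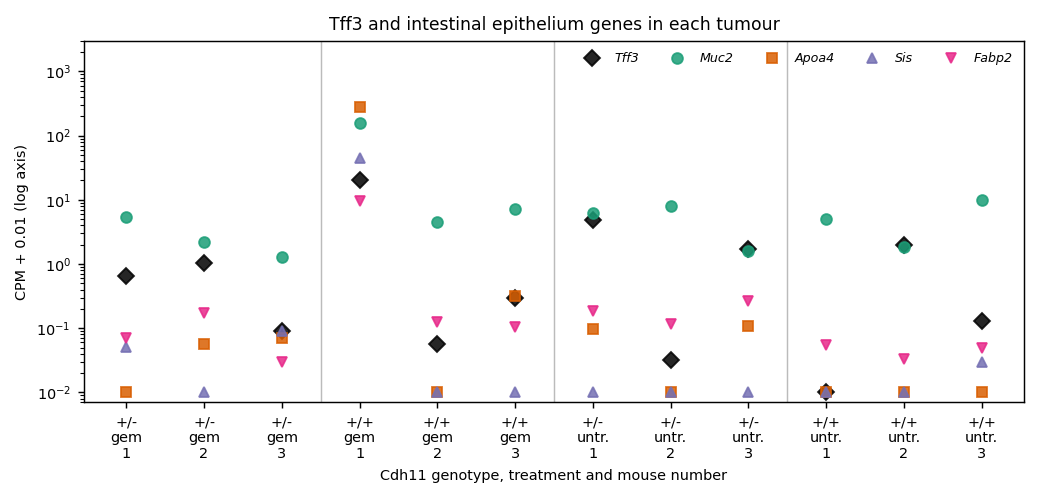
Tff3 with the goblet cell mucin Muc2 and the enterocyte genes Apoa4, Sis and Fabp2 in each of 12 tumours (x axis: genotype, treatment and mouse; y axis: CPM + 0.01, log axis). All 5 genes are highest in gemcitabine-treated +/+ mouse 1, where Tff3 is at 20.5 CPM and Apoa4 at 280.0 CPM.

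Agr2 (chr12:35992907-36004087, plus strand), an endoplasmic reticulum protein needed to fold mucins, was at 13.2, 28.0 and 18.0 CPM in gemcitabine-treated +/- tumours, 21.1, 6.32 and 61.4 CPM in gemcitabine-treated +/+ tumours, 128, 4.88 and 3.87 CPM in untreated +/- tumours and 5.34, 10.6 and 7.93 CPM in untreated +/+ tumours. Untreated +/- mouse 1 held 2.08 times the next tumour, and the other 2 mice of its group were the lowest of all 12. The tumour with the most Muc5ac thus had the least Agr2. Tspan8 (chr10:115816832-115849893, plus strand), a tetraspanin that organises surface proteins and is carried on exosomes, was at 104, 110 and 160 CPM in gemcitabine-treated +/- tumours, 153, 149 and 248 CPM in gemcitabine-treated +/+ tumours, 168, 99.9 and 242 CPM in untreated +/- tumours and 92.2, 70.1 and 104 CPM in untreated +/+ tumours. As with Muc1, untreated +/+ tumours were the lowest group, without overlap with gemcitabine-treated +/+ tumours and with 1 of 3 untreated +/- tumours inside their range.

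Untreated +/- and untreated +/+ tumours were compared to ask what the loss of 1 Cdh11 copy does without drug. Of the 10 genes 9 were higher in +/- tumours, as were 53.7% of all genes, with a median log2 fold change of 1.37 beside 0.04 for all genes. None (0) passed the threshold after adjustment over all 24065 genes (edgeR), which 0.0166% of all genes passed. At an unadjusted p under 0.05, 4 were higher and 0 lower, against 5.51% and 6.65% of all genes. DESeq2, which gave Muc5ac and Muc5b no p, also called 0. Of the other 8 genes it had 3 at that level, so these 3 were not all among the 4 of edgeR. Muc5b averaged 111 ± 179 CPM in +/- and 2.91 ± 3.19 CPM in +/+ tumours (SD, n = 3 each), a log2 fold change of 5.25 ± 1.58 (SE; 95% interval 1.79 to 8.71, edgeR adjusted p = 0.259). It was the only one of the 10 whose untreated genotypes did not overlap, as was true in this direction of 7.36% of all genes. The Muc5ac means were 891 ± 1512 and 57.8 ± 29.6 CPM in +/- and +/+ tumours, a log2 fold change of 3.95 ± 1.75 (edgeR adjusted p = 0.400). Muc1, at 217 ± 122 CPM in +/- and 76.8 ± 45.6 CPM in +/+ tumours, had a log2 fold change of 1.496 ± 0.57 (adjusted p = 0.339), and Tspan8, at 170.2 ± 71.3 CPM in +/- and 88.6 ± 17.0 CPM in +/+ tumours, one of 0.94 ± 0.33 (adjusted p = 0.304), both by edgeR. The other 6 ranged in log2 fold change from -0.10 for Muc6 to 2.51 for Agr2.

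The count at an unadjusted p under 0.05 depended on single tumours of both genotypes. It was 1 (Muc5b) without untreated +/+ mouse 2 and 2 (Muc5b and Tspan8) without untreated +/+ mouse 3. The share of all genes at that level without these tumours is not given here. Without untreated +/- mouse 3, 7 of the 10 genes were higher in +/- tumours, the median log2 fold change was 0.77, and 1 gene, Agr2, had an unadjusted p under 0.05 (log2 fold change 3.05 ± 1.10, edgeR adjusted p = 0.428). Muc5ac was then lower in +/- tumours, at -1.67 ± 1.07, and Muc5b was at 1.29 ± 0.93, Muc1 at 0.95 ± 0.57 and Tspan8 at 0.59 ± 0.32. Markers of other cell types differed between the same tumours. All 12 fibroblast genes were lower in untreated +/- tumours and had unadjusted p under 0.05, with a median of -1.40, and summed to between 4331 and 7214 CPM in +/- and between 11473 and 17751 CPM in +/+ tumours. Of 11 islet genes tested 11 were lower, all with unadjusted p under 0.05, and the islet list summed to between 0.298 and 4.75 CPM in +/- and between 16.9 and 252 CPM in +/+ tumours. Of 14 acinar genes tested 12 were lower, 11 of them with unadjusted p under 0.05; the acinar sums, 10.3 to 35.6 CPM in +/- and 11.4 to 512 CPM in +/+ tumours, overlapped, and 6 to 9 of the 16 listed acinar genes were at 0 in each +/- tumour, against 0 to 2 in each +/+ tumour. Endothelial genes were lower in 9 of 10 cases (median -0.81), summing to between 236 and 371 CPM in +/- and between 402 and 655 CPM in +/+ tumours. Of 18 duct epithelium genes 15 were higher, with a median of 0.18, and the sums overlapped, from 5410 to 8350 CPM in +/- and from 5621 to 7820 CPM in +/+ tumours. With the mean level of epithelial genes as a covariate the log2 fold change was 1.51 for Muc1, 0.93 for Tspan8, 4.57 for Muc5b and 3.16 for Muc5ac. With the summed acinar markers as a covariate it was 1.33 for Muc1 and 1.01 for Tspan8, 10 of the 10 genes were higher and 4 had an unadjusted p under 0.05. With the epithelial covariate 9 were higher and 3 had an unadjusted p under 0.05. Xist as a covariate left 9 higher, with 2 at that level. The part of the fibroblast, islet and endothelial genes in these differences was not tested.

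Gemcitabine-treated tumours labelled +/- and +/+ were compared to ask the same under drug. Here 3 of the 10 genes were higher and 7 lower in the tumours labelled +/-, where 46.9% of all genes were higher, with a median log2 fold change of -0.57 beside -0.03 for all genes. None of the 10 passed over all genes, which 0.00416% of them did, and 0 had an unadjusted p under 0.05 by edgeR or by DESeq2, against 4.66% of all genes higher and 2.89% lower by edgeR. The smallest p was that of Tspan8, at 125 ± 30.6 CPM in +/- and 183 ± 55.7 CPM in +/+ tumours (SD, n = 3 each), with a log2 fold change of -0.56 ± 0.33 (edgeR adjusted p = 0.787). Its 95% interval ran from -1.28 to 0.16, and with Xist as a covariate the log2 fold change was -0.28. Over the 10 genes the Xist covariate gave 5 higher and 5 lower, with a median of -0.05, in place of 3 and 7. Xist and genotype go together in all treated tumours, so the covariate takes its slope mainly from the untreated mice. It therefore cannot separate sex from genotype among treated mice, here or in the comparisons below that include both treated genotypes. The log2 fold change farthest from 0 was that of Tff3, -3.58 ± 2.16, which was 1.79 ± 2.06 without gemcitabine-treated +/+ mouse 1, the tumour with intestinal genes. Without that tumour 4 genes were higher and 6 lower, and the median was -0.42. Of 18 duct epithelium genes 16 were lower in the tumours labelled +/- (median -0.44, 3 with unadjusted p under 0.05 by edgeR). Their sums overlapped, at 5157 to 8408 CPM in +/- and 8269 to 10776 CPM in +/+ tumours. With the epithelial covariate 4 of the 10 genes were higher and 6 lower, with a median of -0.54. Immune genes were higher in the tumours labelled +/- in 13 of 13 cases (median 1.91, 7 with unadjusted p under 0.05), and their sums did not overlap, at 481 to 760 CPM in +/- and 223 to 362 CPM in +/+ tumours. Of 14 acinar genes 13 were lower, 10 of them with unadjusted p under 0.05, with sums of 9.11 to 12.1 CPM in +/- and 8.02 to 217 CPM in +/+ tumours. With the acinar covariate 4 of the 10 genes were higher and 6 lower, with a median of -0.27 and 1 gene, Tff2, at an unadjusted p under 0.05, while the part of the immune genes was not tested.

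Gemcitabine-treated and untreated +/+ tumours were compared to ask what the drug does where Cdh11 is intact. Muc1 and Tspan8 were higher in each treated tumour than in any untreated one. Muc1 averaged 229.7 ± 24.1 CPM in treated and 76.8 ± 45.6 CPM in untreated tumours (SD, n = 3 each), a log2 fold change of 1.58 ± 0.58 (95% interval 0.31 to 2.84), and Tspan8 averaged 183 ± 55.7 CPM in treated and 88.6 ± 17.0 CPM in untreated tumours, a log2 fold change of 1.05 ± 0.33 (95% interval 0.32 to 1.78). Each had an edgeR adjusted p of 0.559, with unadjusted p of 0.0189 for Muc1 and 0.00879 for Tspan8. So 0 of the 10 genes passed over all genes, as did 0% of all genes, 2 were higher and 0 lower at an unadjusted p under 0.05, against 4.05% and 4.55% of all genes, and DESeq2 also gave 0 called and 2 at that level. Groups without overlap, higher in treated tumours, were found for these 2 genes and for 6.53% of all genes. In all, 8 of the 10 were higher, as were 51% of all genes, with a median of 1.09 beside 0.01 for all genes. Tff2 and Tff1 were the 2 lower ones, at -1.25 ± 1.10 and -0.95 ± 0.81. All treated +/+ tumours were Xist-high and untreated +/+ mouse 2 was not. With Xist as a covariate 8 of the 10 were higher, with a median of 0.55, and 2 had an unadjusted p under 0.05.

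Without gemcitabine-treated +/+ mouse 1, Muc1 was at 1.64 ± 0.65 and Tspan8 at 1.16 ± 0.37, while Tff3 stood at -2.03 ± 2.07, against 3.35 ± 2.13 with it, and 5 of the 10 were higher with a median of 0.28. Duct epithelium genes were higher in the treated tumours in 15 of 18 cases (median 0.42), and their sums did not overlap, at 8269 to 10776 CPM in treated and 5621 to 7820 CPM in untreated tumours. With the epithelial covariate the log2 fold change was 1.65 for Muc1 (unadjusted p = 0.0374 by edgeR) and 0.94 for Tspan8 (unadjusted p = 0.0392 by edgeR). All 12 fibroblast genes were lower in treated tumours (median -0.76), with sums of 6226 to 15153 CPM in treated and 11473 to 17751 CPM in untreated tumours. Islet genes were lower in 11 of 11 cases, endothelial genes in 10 of 10 and immune genes in 12 of 13, and the part of these lists was not tested. Without untreated +/+ mouse 3, Tspan8 alone of the 10 had an unadjusted p under 0.05. The median over the 10 was 0.63 without gemcitabine-treated +/+ mouse 3.

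Gemcitabine-treated and untreated +/- tumours were compared to ask what the drug does with 1 Cdh11 copy. Tff1 averaged 27.9 ± 17.0 CPM in treated and 166 ± 131 CPM in untreated tumours (SD, n = 3 each), a log2 fold change of -2.57 ± 0.86 (95% interval -4.45 to -0.69, edgeR adjusted p = 0.593), and the groups overlapped through untreated mouse 2. Muc5ac, with a log2 fold change of -4.34 ± 1.78 (edgeR adjusted p = 0.606), turned to 1.27 ± 1.05 without untreated mouse 3, while Tff1 was then at -2.04 ± 0.89. Over the 10 genes, 2 were higher and 8 lower in treated tumours, where 46.8% of all genes were higher, with a median of -1.05 beside -0.03 for all genes. By edgeR 0 passed over all genes, against 0.00831% of all genes, with 2 lower and 0 higher at an unadjusted p under 0.05, against 3.48% and 4.42% of all genes. DESeq2, which gave Muc5ac and Muc5b no p, called 0, with 1 of the other 8 at that level. Without untreated mouse 3 the split was 5 higher and 5 lower and the median -0.04. With Xist as a covariate the split was 2 higher and 8 lower and the median -0.80. Duct epithelium genes were lower in treated tumours in 13 of 18 cases (median -0.37). With the epithelial covariate 2 of the 10 genes were higher and 8 lower, with a median of -0.81. Without gemcitabine-treated mouse 2 all 10 were lower, with a median of -1.93. At an unadjusted p under 0.05 by edgeR, 1 was higher and 3 lower without untreated mouse 1. Without untreated mouse 2, 0 were higher and 4 lower at that level. The share of all genes at that level in these settings is not given here. The 13 immune genes tested were all higher in the treated +/- tumours (median 1.46), summing to between 481 and 760 CPM in treated and between 284 and 369 CPM in untreated tumours. Islet genes were higher in 11 of 11 cases, fibroblast genes in 11 of 12 and endothelial genes in 9 of 10, and the part of these lists in the Tff1 difference was not tested.

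The gemcitabine effect in +/- mice minus that in +/+ mice was tested as its own term. Tspan8 had a difference of -1.499 ± 0.47 (log2, 95% interval -2.52 to -0.48, edgeR adjusted p = 0.264) and Muc1 one of -2.08 ± 0.80 (-3.85 to -0.32, adjusted p = 0.325). Both effects stand side by side with the groups they come from: for Tspan8 -0.45 ± 0.33 in +/- and 1.05 ± 0.33 in +/+ mice, and for Muc1 -0.50 ± 0.56 in +/- and 1.58 ± 0.58 in +/+ mice. Of the 10 genes 9 had a negative difference and 1, Tff2, a positive one, as had 45.8% of all genes, with a median of -1.85 beside -0.07 for all genes. None passed over all genes, as 0.00831% of them did, and 2 had an unadjusted p under 0.05 on the negative side and 0 on the positive side, against 5.52% and 7.14% of all genes. DESeq2 called 0, with 3 at that level, and its adjusted p for Tspan8, 0.0838, was the smallest that any of the 10 genes had in any comparison or setting tried. Without untreated +/- mouse 3 the median was -1.12, with 8 negative and 2 positive, Tspan8 was at -1.15 ± 0.43, Muc1 at -1.54 ± 0.78 and Muc5ac at 1.22 ± 1.37, against -4.39 ± 2.30 with it. Without gemcitabine-treated +/+ mouse 1, 7 were negative and 3 positive, with a median of -1.33, and Tff3 was at 0.12 ± 2.33, against -5.25 ± 2.94 with it. The count at an unadjusted p under 0.05 was 6 without untreated +/- mouse 2, 4 without untreated +/- mouse 1, and 1 (Tspan8) without untreated +/+ mouse 3. The share of all genes at that level without these tumours is not given here. With the epithelial covariate Tspan8 was at -1.34 and Muc1 at -2.17. With Xist as a covariate 8 of the 10 genes were negative and 2 positive, with a median of -1.60. Of 18 duct epithelium genes 15 had a negative difference (median -0.83), as had 7 of 8 enterocyte genes (median -2.15). Goblet and Paneth cell genes were negative in 7 of 8 cases (median -3.63). Differences were positive for immune genes in 13 of 13 cases (median 2.65) and islet genes in 11 of 11 (median 6.02). They were also positive for fibroblast genes in 12 of 12 (median 1.31) and endothelial genes in 10 of 10 (median 1.09). The part of the intestinal, immune, islet, fibroblast and endothelial genes in the differences of the 10 genes was not tested.

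Averaged over treatments, genotype gave Muc5b a log2 fold change of 3.12 ± 1.01 in +/- over +/+ tumours (edgeR adjusted p = 0.474), which was 1.14 ± 0.63 without untreated +/- mouse 3 and 1.63 ± 1.24 with the epithelial covariate. Of the 10 genes 7 were higher, as were 51.3% of all genes, with a median of 0.64. With Xist as a covariate 7 were higher, the median was 0.39 and 0 had an unadjusted p under 0.05. Without untreated +/- mouse 3, 6 were higher, the median was 0.10 and 0 had an unadjusted p under 0.05, and without gemcitabine-treated +/- mouse 3, 2 had one (Muc4 and Muc5b). By edgeR 0 passed (0.0332% of all genes did), and at an unadjusted p under 0.05 1 was higher and 0 lower, against 3.7% and 3.96% of all genes, while DESeq2 gave 0 at either level. Averaged over genotypes, gemcitabine gave Tff1 a log2 fold change of -1.76 ± 0.59 in treated over untreated tumours (edgeR adjusted p = 0.942), with means of 48.0 CPM in treated and 148.5 CPM in untreated tumours. It was the only one of the 10 with an unadjusted p under 0.05, lower in treated tumours as were 2.2% of all genes, with 2.25% higher. Of the 10, 6 were higher, as were 49.1% of all genes. Tff1 stayed negative without each tumour in turn, from -2.05 to -1.49. None of the 10 passed (0.00831% of all genes did), and DESeq2 called 0, with 1 at that level. DESeq2 gave Muc5ac and Muc5b no p in any comparison.

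**Figure D4:**
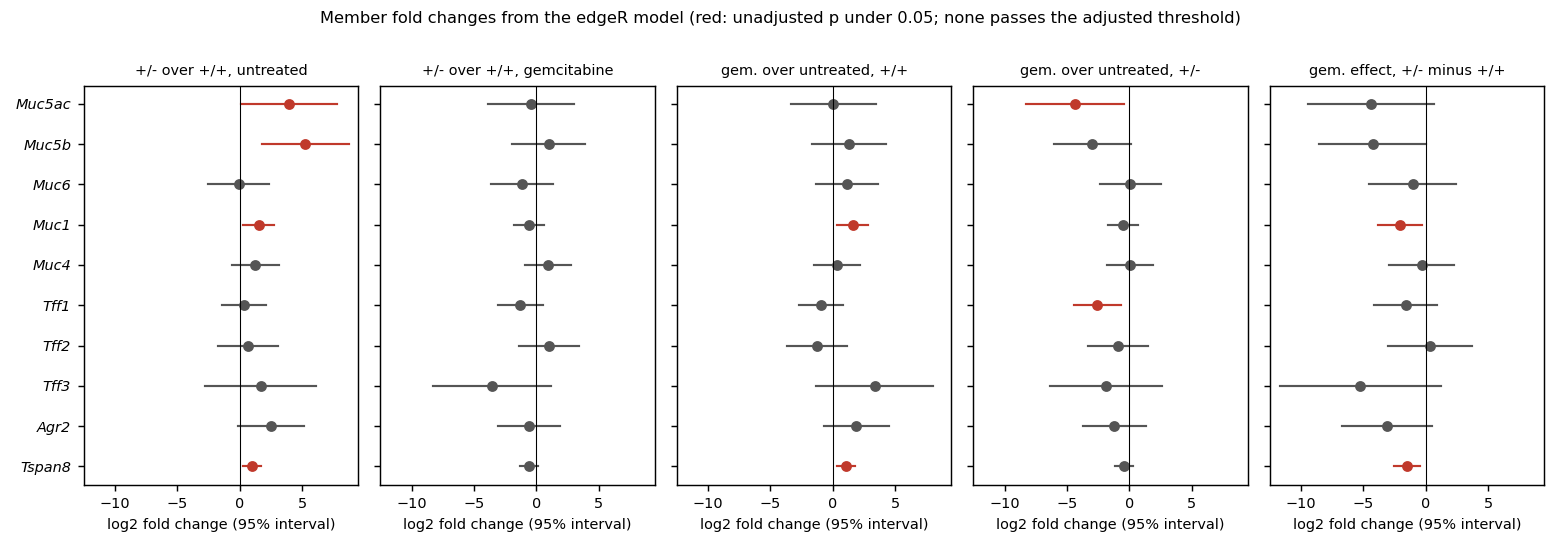
Log2 fold change of each gene (points) with its 95% interval (lines) in the 4 comparisons between groups and for the gemcitabine effect in +/- minus that in +/+ mice (x axes), from the edgeR model over 12 tumours; red marks an unadjusted p under 0.05. The intervals are widest for Tff3, Muc5ac and Muc5b and narrowest for Tspan8, whose estimates are 0.94, -0.56, 1.05, -0.45 and -1.499 from left to right.

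Members of the group were then compared with each other across the 12 tumours on log2(CPM + 1), over 45 pairs with permutation tests. None passed Benjamini-Hochberg adjustment over the 45 pairs, by Pearson's r or by Spearman's rho, and 5 pairs had an unadjusted p under 0.05 for r. Pearson's r lay between -0.56 and 0.72 with a median of 0.21. Tff1 and Tff2, neighbours on chromosome 17, had r = 0.67 (permutation p = 0.0165, adjusted 0.319) and rho = 0.63 (permutation p = 0.0321, adjusted 0.496). Their r was 0.37 without the 2 tumours farthest from the median of Tff1, and 0.71 for deviations from group means. Muc5ac and Muc5b, neighbours on chromosome 7, had the highest r, 0.72 (permutation p = 0.0300, adjusted 0.319), with rho = 0.38 (permutation p = 0.228, adjusted 0.812), and r was 0.12 without untreated +/- mouse 3, so the relation rests on that tumour. Muc6 and Agr2 had r = 0.58 (permutation p = 0.0457, adjusted 0.319) and rho = 0.68 (permutation p = 0.0178, adjusted 0.496), and r was 0.72 without the 2 tumours farthest from the median of Muc6 and 0.69 for deviations from group means. Muc1 and Tspan8 had r = 0.54 (permutation p = 0.0699, adjusted 0.319) and rho = 0.59 (permutation p = 0.0503, adjusted 0.566), with 0.82 without the 2 farthest tumours but 0.04 for deviations from group means.

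**Figure D5:**
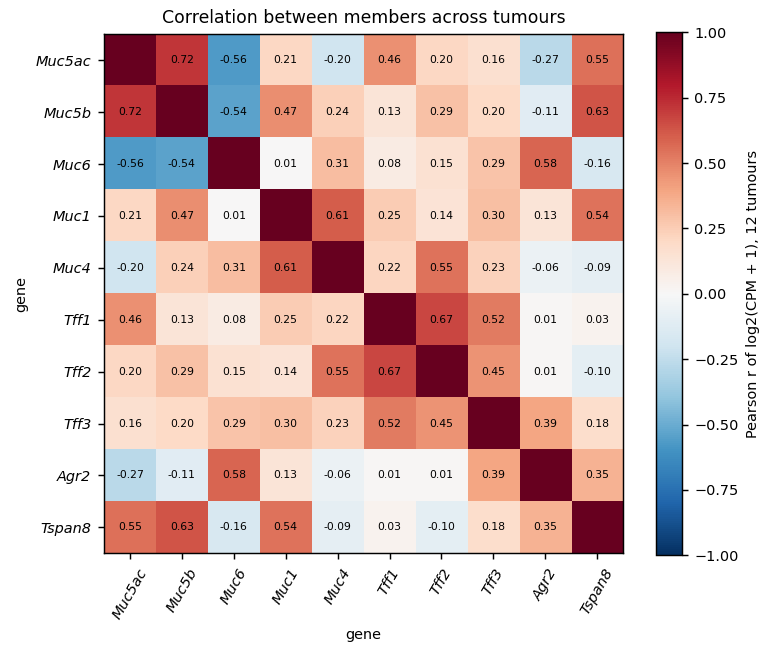
Pearson's r between the 10 genes (both axes) over 12 tumours on log2(CPM + 1), with colour and number giving r. Muc5ac with Muc5b (0.72) and Tff1 with Tff2 (0.67) are the highest, and Muc5ac with Muc6 (-0.56) the lowest.

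Genes whose levels were most like those of each member over the 12 tumours were taken as a description, by Pearson's r over the genes tested. They are the highest of very many r values over only 12 tumours, and no chance level was worked out. Some were barely expressed, with medians of 0.0101 CPM for Btnl5-ps, 0.127 CPM for Cxcl9 and 0.141 CPM for Rimkla. For Muc1 they were Tmem238 (r = 0.91), Sh2d4a (0.90) and Dennd2d (0.89). Agr2 was most like Etv6 (0.95), Ggt6 and Rimkla (0.91 each), and Tff2 like Ugt1a6a (0.93), Fam107a (0.91) and Akr1b7 (0.88). The 12 points of Agr2 include the 128 CPM of untreated +/- mouse 1, 2.08 times the next tumour. Tff1 was most like Ugt2b34 and N4bp2os (0.88 each) and Meis1 (0.87). Muc6 was most like Adgrf1 (0.90), Clic5 (0.88) and Rps10-ps4 (0.87), Muc4 like Mapre3 and Atp1b1 (0.81 each) and Krt12 (0.79), and Tspan8 like Abhd6 (0.89), Rhno1 (0.88) and Pcnt (0.86). For Muc5ac (Lysmd2, 0.90; Acat1, 0.89; Myo5a, 0.88) and Muc5b (Slc12a3, 0.91; Tgtp2, 0.89; Cxcl9, 0.88) the 12 points include the extreme value of untreated +/- mouse 3, and for Tff3 (Btnl5-ps and Sult1b1, 0.92 each; Smim24, 0.91) that of gemcitabine-treated +/+ mouse 1.

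Related lists of genes were read beside the 10 by counts and medians only, and 0 of their genes passed over all genes in the comparisons named here. Of 29 genes for mucin folding, glycosylation and secretion, 24 were higher and 5 lower in gemcitabine-treated over untreated +/+ tumours (median 0.94; 0.58 with 21 higher without gemcitabine-treated +/+ mouse 1), and 6 were higher and 23 lower in gemcitabine-treated +/- over +/+ tumours (median -0.62). St6galnac1, which adds sialic acid to mucin sugars, was at 4.73 ± 5.79 and 0.0446 ± 0.0438 CPM in gemcitabine-treated +/- and +/+ tumours (SD, n = 3 each), and at 1.68 ± 0.33 and 0.0384 ± 0.0666 CPM in untreated +/- and +/+ tumours. Its log2 fold change averaged over treatments was 6.02 ± 1.27 (edgeR adjusted p = 0.251). The treated genotypes overlapped, since gemcitabine-treated +/- mouse 2 held 0 counts of St6galnac1, beside 149 and 558 in mice 1 and 3. Creb3l1, a secretory pathway transcription factor, was lower in the same average, at -1.38 ± 0.38 (edgeR adjusted p = 0.386). Zg16, a goblet cell lectin at -5.98 ± 1.66 (edgeR adjusted p = 0.386), had 2252 of its counts in gemcitabine-treated +/+ mouse 1. Of 7 other mucin genes 6 were higher in gemcitabine-treated over untreated +/+ tumours, with a median of 1.41 that was 0.06 without it.

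Gastric pit and neck genes, which mark the epithelium that normally makes Muc5ac, Muc6, Tff1 and Tff2, were higher in untreated +/- over +/+ tumours in 13 of 15 cases (median 0.87), or 10 of 15 (median 0.34) without untreated +/- mouse 3. They were lower in gemcitabine-treated +/- over +/+ tumours in 14 of 15 cases (median -0.69) and in gemcitabine-treated over untreated +/- tumours in 14 of 15 (median -1.29; -0.61 with 13 lower without untreated +/- mouse 3). Wfdc2, a secreted protease inhibitor, was at 361 ± 141 CPM in gemcitabine-treated and 72.2 ± 41.8 CPM in untreated +/+ tumours (log2 fold change 2.32 ± 0.53, edgeR adjusted p = 0.559). Dmbt1, a mucosal scavenger protein, was at 9534 ± 9941 CPM in untreated +/- and 1131 ± 61.0 CPM in untreated +/+ tumours (3.08 ± 0.93, edgeR adjusted p = 0.261). Gkn2, a gastrokine, was at 5.02 ± 3.08 CPM in gemcitabine-treated and 25.1 ± 22.5 CPM in untreated +/- tumours (-2.33 ± 0.91, edgeR adjusted p = 0.599).

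Further genes of the classical tumour programme were higher in gemcitabine-treated over untreated +/+ tumours in 18 of 22 cases (median 0.69) and lower in gemcitabine-treated +/- over +/+ tumours in 20 of 22 (median -0.87). Slc44a4, a choline transporter family member of secretory epithelia, had a difference of gemcitabine effects of -1.81 ± 0.56 (edgeR adjusted p = 0.259). Plac8 was at 124 ± 14.1 CPM in gemcitabine-treated +/- and 305 ± 157 CPM in gemcitabine-treated +/+ tumours (-1.29 ± 0.40, edgeR adjusted p = 0.546). Basal programme genes were split, with 7 of 16 higher in untreated +/- over +/+ tumours (median -0.17) and 11 of 16 higher in gemcitabine-treated over untreated +/+ tumours (median 0.43). The keratin Krt17 of that list was at 0.0878 ± 0.152 CPM in untreated +/- and 4.33 ± 2.93 CPM in untreated +/+ tumours (-5.60 ± 1.38, edgeR adjusted p = 0.206). A list of 10 genes tied to Muc4 and Muc1 signalling, made of ErbB receptors and ligands with galectin 3 (Lgals3) and beta-catenin (Ctnnb1), was higher in 8 of 10 cases in gemcitabine-treated over untreated +/+ tumours (median 0.30) and lower in 8 of 10 in gemcitabine-treated +/- over +/+ tumours (median -0.36). The ErbB ligand Areg averaged -1.72 ± 0.42 in +/- over +/+ tumours (edgeR adjusted p = 0.317). In a list of 20 genes, 18 tetraspanins and the integrins Itga6 and Itgb4, 8 were higher in untreated +/- over +/+ tumours (median -0.13), 9 in gemcitabine-treated over untreated +/+ tumours (median -0.05) and 5 in +/- over +/+ tumours averaged over treatments (median -0.11). The epithelial tetraspanin Tspan15 had a difference of gemcitabine effects of -2.71 ± 0.60 and Cd53, a tetraspanin of leukocytes, one of 1.67 ± 0.37 (edgeR adjusted p = 0.252 each).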

How the data were processed

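The authors deposited expected counts for each Ensembl gene, made with RSEM on GRCm38, per the submitters' processing notes, and held as whole numbers. The kit was a stranded total RNA kit with ribosomal RNA depletion, per the labels' protocols. Aligner, annotation release and strand setting were not given in the sources used here. Reads that map to several genes are divided among them by RSEM. Groups came from the labels; each library is 1 mouse, so p-values measure the spread between these mice. Symbols came from GENCODE M21 by gene ID.

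Testing used edgeR 4.0.16 in R 4.3.3, with its filterByExpr, TMM (factors 0.897 to 1.09), a quasi-likelihood model of 4 group means over 12 libraries (biological coefficient of variation 46.4%) and 7 comparisons, with Benjamini-Hochberg adjustment over 24065 genes and a threshold of 0.05. It was tested on simulated counts. Permutation tests used 100000 resamples. Floors are 3 counts and cover counting error only. DESeq2 1.42.0 and other settings were alternatives. Shares of all genes at an unadjusted p under 0.05 are those of edgeR on all 12 libraries. Counts of members from DESeq2, with a covariate or without 1 library stand without such a share.

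The 10 genes and the 17 lists beside them were chosen with earlier results of these data known. Fold changes are named for members with an unadjusted p under 0.05, otherwise for the smallest p, and for up to 3 genes a list with the smallest p; the 3 most alike genes leave out unnamed and predicted genes. Other members and list genes are given by ranges and counts. A few further fold changes of members (Tff3, Tff2, Tff1, Muc1 and Tspan8 where the rule does not name them) are given after their values were seen.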

Additional observations from a re-analysis of the deposited data

Results flagged for a closer look

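Each gene was checked in the 4 sets of 6 tumours that share a genotype or a treatment, 40 sets in all, for a tumour far from the other 5 by Dixon's 95% criterion. It picked out 13 values in CPM, listed below, and 7 on log2(CPM + 1). For normally distributed values in separate sets, chance alone picks out about 1 in 20 sets. The sets here overlap and mix groups, so that rate need not hold for them. Untreated +/- mouse 3 stood apart for Muc5ac (2637 CPM) and Muc5b (318 CPM), among +/- and among untreated tumours, and for Tff2 (214 CPM) among untreated tumours. Untreated +/- mouse 1 stood apart for Agr2 (128 CPM), among +/- and among untreated tumours, and for Tff3 (4.81 CPM) among +/- tumours. Gemcitabine-treated +/+ mouse 1, which held intestinal genes, stood apart for Tff3 (20.5 CPM) among +/+ and among treated tumours, and gemcitabine-treated +/+ mouse 3 for Agr2 (61.4 CPM) among +/+ tumours. Among treated tumours, gemcitabine-treated +/- mouse 2 was high for Muc4 (205 CPM) and gemcitabine-treated +/- mouse 3 was low for Muc1 (52.0 CPM). No test of why these tumours stand apart was made.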

How the results depend on the processing

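Of 252 alternative fold changes of named members, 250 kept their direction and stayed short of the threshold, and 2 reversed: Muc5ac was at -1.67 in untreated +/- over +/+ tumours and at 1.27 in gemcitabine-treated over untreated +/- tumours without untreated +/- mouse 3, a setting also looked at after seeing the data, as was leaving out gemcitabine-treated +/+ mouse 1. The number of members called was 0 in every setting run. Counts over all genes moved. In the order untreated genotype, treated genotype, gemcitabine in +/+, gemcitabine in +/-, difference of effects, genotype average and gemcitabine average, edgeR called 4, 1, 0, 2, 2, 8 and 2 genes, and DESeq2 703, 237, 120, 170, 652, 304 and 29; the cause was not tested. For untreated genotype, 10 genes were called without the count filter and 2 with only the groups compared. For treated genotype, 12 were called with only the groups compared and 0 with the replicate block, the epithelial or the Xist covariate. The difference of effects had 0 with the epithelial covariate, and the genotype average 4 with the replicate block, the epithelial or the acinar covariate and 3 with Xist. Without 1 library at a time the counts ran from 2 to 12, 0 to 4, 0 to 1, 2 to 9, 2 to 7, 3 to 13 and 2 to 7 in the order above, members called and pairs called from 0 to 0, and the Muc5ac log2 fold change from -1.67 to 4.53 in untreated +/- over +/+ tumours and from -6.64 to 1.27 in gemcitabine-treated over untreated +/- tumours. Replicate numbers did not pair mice: of 18 same-number pairs 4 had r over 0.1 (-0.25 to 0.17). Under the replicate block Muc5ac was at 1.07 in untreated +/- over +/+ tumours and no member was called. The coefficient of variation of 46.4% is a common value over all genes. With 3 mice a group, 95% intervals of Muc5ac, Muc5b and Tff3, which differed widely between single tumours, span several log2 units. Tff3, with few counts in several tumours, is the gene most limited by depth.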

Other observations

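Tumours that stood apart in members did so with some other epithelial genes too, named here after their values were seen. Untreated +/- mouse 1, highest in Agr2, was also highest in Dmbt1 (21012 CPM, next 3801 CPM), in the gastrokine Gkn3 (476 CPM, next 167 CPM), in the gastric epithelial gene Vsig2 (143 CPM, next 40.8 CPM), in Pgc, the pepsinogen of gastric gland cells (39.4 CPM, next 4.98 CPM), and in the membrane mucin Muc3 (147 CPM, next 42.5 CPM). Untreated +/- mouse 3, highest in Muc5ac and Muc5b, was highest in Cldn18, a tight junction protein of gastric epithelium (867 CPM, next 465 CPM). It was also highest in Gkn2 (48.5 CPM, next 29.1 CPM). The same tumour was the lowest of all in Vsig2 (3.28 CPM) and in the epithelial gene Epcam (108 CPM). Cldn18 was lowest, at 0.201 CPM, in gemcitabine-treated +/- mouse 3, the tumour second in both mucins. The surface gastrokine Gkn1 was highest in gemcitabine-treated +/+ mouse 3 (219 CPM, next 57.5 CPM), which also had the most Muc6 and Tspan8.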
